A study of Mus musculus with 12 samples.

Results

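Mouse embryonic stem (ES) cells kept in medium with fetal bovine serum (FBS) were compared between day 10 and day 0 of a time course. The comparison used 4 of the 12 one-colour arrays of the series, taken by the arm, day and line in their labels: FBS day 10 of the Stella-GFP line and of the Dazl-GFP line, and FBS day 0 of the same lines, so each group had 2 arrays and each line gave a pair. Stella-GFP and Dazl-GFP are a pair of independent ES cell lines with a green fluorescent reporter named after a germ cell gene, Dppa3 (also called Stella) and Dazl. In all 4 cultures the cells grew on irradiated mouse embryonic fibroblast feeders with leukemia inhibitory factor (LIF) in DMEM with 15% FBS. The serum-free arm of the series, which the labels call the 2i condition, used B27N2 medium with LIF and the same feeders. The labels name PD0325901, which blocks MEK (1 µM), and Kenpaullone, which blocks GSK3β (5 µM), as the agents of the 2i experiments. Whether cells in FBS were given these agents after day 0 is not stated, and neither is the treatment of any culture before day 0. No genotype difference, Cre or transgene other than the reporter is named, and nothing says how the reporter was inserted or whether the 2 days of a line came from separate cultures, so the p-values below measure only the spread between these samples.

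Mouse ES cells move between a naive state, close to the epiblast of the early blastocyst, and a primed state, close to the epiblast after implantation. LIF signalling through STAT3 and a circuit of transcription factors that includes Klf4, Tfcp2l1, Esrrb, Tbx3 and Nanog hold cells in the naive state, while fibroblast growth factor signalling through MEK and ERK drives them out of it. Naive cells keep low DNA methylation. The de novo methyltransferases Dnmt3a and Dnmt3b and their cofactor Dnmt3l add methyl groups, Dnmt1 with Uhrf1 copies them at replication, and the TET enzymes oxidise them. Dazl is an RNA-binding protein of germ cells.

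Relative signal is used below for a probe's processed signal divided by the 75th percentile of its array, and where 2 values stand for a group, the Stella-GFP array comes first and the Dazl-GFP array second. A change is the difference of the mean log2 values, day 10 minus day 0, with its standard error (SE) from the limma fit, n = 2 arrays per group. Relative signals compare a gene between arrays and not 1 gene with another, since probes differ in brightness. Whether the arrays of the 2 days overlapped is given as a description only. Genes that pass were picked on these same arrays, and the share of all genes without overlap was not counted. The 4 arrays were similar in depth of signal: 68.6% and 73.3% of spots at day 10, against 70.7% and 74.4% at day 0, were well above background. All 8 ES cell markers (Pou5f1, Nanog, Sox2, Sall4, Dppa4, Dppa5a, Tdgf1 and Utf1) were above background on all 4 arrays, and their relative signals summed to 454 and 568 at day 10, against 442 and 490 at day 0. Dppa5a made 370 and 473 of these sums at day 10 and 330 and 399 at day 0, and of the 8 markers 1 rose, 3 fell and 4 did not pass, with a median change of -0.21.

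At day 10, 2687 of 20770 genes tested (12.9%) differed from day 0 at an adjusted p under 0.05. Of these, 1563 (7.53% of genes tested) were higher at day 10 and 1124 (5.41%) were lower, and 1891 of the 2687 changed by at least 2-fold. Counts of list members below stand against these shares of all genes, and no list was tested for an excess. Every one of the 2687 changed in the same direction in both lines. The test was fitted to these same pairs and favours genes on which they agree, so this is no separate evidence. The median change of all genes was -0.03, with -0.06 in the Stella-GFP pair and 0.01 in the Dazl-GFP pair, so the changes below are read against a centre near 0. The calls rest on a spread estimated over all 12 arrays: limma fitted to the 4 arrays alone called 0 genes, with 4170 at an unadjusted p under 0.05, and without the Dazl-GFP day 10 array it called 667. The Dazl-GFP pair lay on 1 slide and the Stella-GFP pair on separate slides (day 10 on slide 2 and day 0 on slide 1), and with the slide as a block 1295 genes were called.

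**Figure D1:**
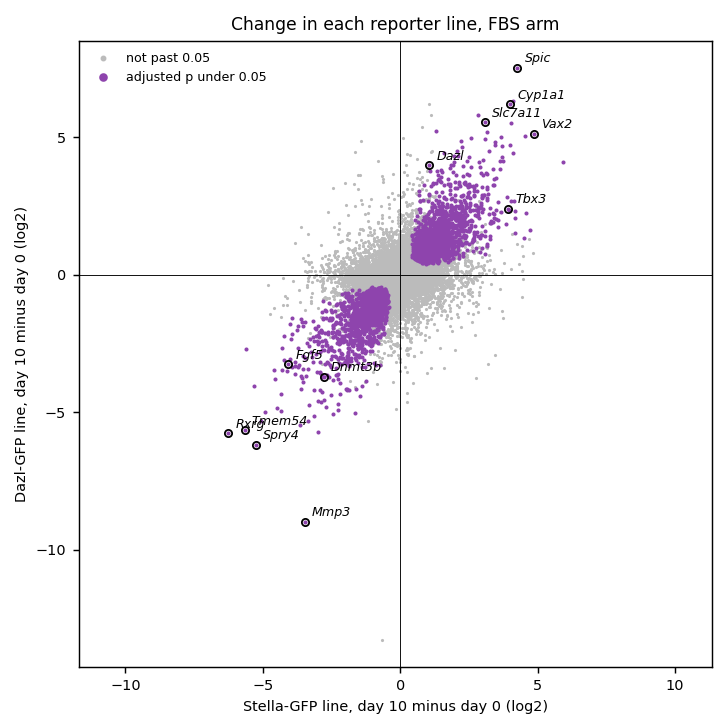
Change of each of the genes tested in the Stella-GFP line (x axis) and in the Dazl-GFP line (y axis), day 10 minus day 0 of the FBS arm, both in log2 units. Purple points are the 2687 genes past an adjusted p of 0.05, which lie in the upper right and lower left quadrants, and the named genes are ringed. Rxrg, Spry4 and Tmem54 lie near the diagonal, while Mmp3 and Dazl lie off it, with the larger change in the Dazl-GFP line.

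Most naive pluripotency genes rose. Of 12 measured, 8 rose, 1 fell and 3 did not pass the test, with a median change of 1.23 against -0.03 for all genes. Tbx3, a T-box factor of the naive circuit, had a relative signal of 23.3 and 22.8 at day 10, against 1.52 and 4.31 at day 0. Both day 10 arrays stood above both day 0 arrays, and the change was 3.17 ± 0.42 (SE, adjusted p = 0.00483). A second, dimmer probe gave 3.37. Krüppel-like factor Klf4, a STAT3 target, had 44 and 52.4 at day 10 and 11.9 and 26.2 at day 0, a change of 1.44 ± 0.28 (adjusted p = 0.0178). The groups did not overlap, and the day 0 arrays differed from each other more than the day 10 arrays did. Klf2 had 192 and 174 at day 10, against 82.8 and 46 at day 0, a change of 1.57 ± 0.30 (adjusted p = 0.0169), but another bright probe of Klf2 gave 0.34 with an adjusted p of 0.27 among all probes.

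The other 5 members that rose also had both day 10 arrays above both day 0 arrays, which adds no support, since they were called on these arrays. Tcl1, an AKT cofactor, changed by 1.55 ± 0.25 (adjusted p = 0.00945), and Tfcp2l1, a transcription factor downstream of LIF, by 1.48 ± 0.34 (adjusted p = 0.0303). Nr5a2 and Esrrb, orphan nuclear receptors, changed by 1.29 and 1.18, and Zfp42 (Rex1), a zinc finger protein used as a naive marker, by 0.97. Klf5, Nr0b1 and Dppa3 did not pass, with changes of 0.38, 0.19 and 0.68. Gbx2, a homeobox gene that LIF and STAT3 induce, was the exception: its relative signal was 0.421 and 0.232 at day 10, against 4.87 and 3.46 at day 0, a change of -3.72 ± 0.50 (adjusted p = 0.00536). Both day 10 arrays lay far below both day 0 arrays, and a dimmer probe gave -1.78.

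No primed or formative gene rose. Of 12 measured, 6 fell and 6 did not pass, and the median change was -2.12. Fgf5, the growth factor that marks the primed epiblast, had a relative signal of 0.189 and 0.0562 at day 10, against 3.2 and 0.537 at day 0. It was lower at day 10 in both lines, although the lines differed in level on both days, and the change was -3.67 ± 0.32 (adjusted p = 0.0017). Without the replicate block, which removes that difference of level, Fgf5 no longer passed. Pou3f1 (Oct6), a POU factor of the formative epiblast, had 5.4 and 3.63 at day 10 and 39.2 and 15.2 at day 0, a change of -2.46 ± 0.38 (adjusted p = 0.00793). Cldn6, a tight junction claudin, changed by -3.02 ± 0.40 (adjusted p = 0.005) and Fgf15, a growth factor of the embryo, by -2.49 ± 0.27 (adjusted p = 0.00278). Dnmt3a and Dnmt3b, which the list also holds, are given with the DNA methylation genes. Otx2, Foxd3, Zic2, Sox3, Sall2 and Lef1 did not pass, with changes of 0.49, 0.23, 0.21, -0.17, -1.42 and -1.78.

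Among 12 genes of the core and general pluripotency list, 2 rose, 5 fell and 5 did not pass, with a median of -0.50. Nanog, the homeodomain factor at the centre of the naive state, had a relative signal of 12.3 and 17.1 at day 10, against 5.05 and 5.46 at day 0, a change of 1.46 ± 0.18 (adjusted p = 0.0042). The day 0 arrays were nearly equal and both lay below the day 10 arrays. Zfp296, a Klf4 partner, changed by 0.92, but another bright probe gave 0.59 with an adjusted p of 0.384 among all probes. Sox2 had 16.9 and 22.2 at day 10 and 13.7 and 16.2 at day 0, and Pou5f1 (Oct4) had 26.3 and 36.3 at day 10 and 47.9 and 33.1 at day 0. Neither passed: the change was 0.38 for Sox2 (adjusted p = 0.224) and -0.36 for Pou5f1 (adjusted p = 0.59), whose groups overlapped.

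Those that fell were Utf1, a chromatin factor of ES cells, Lin28a, which binds the let-7 precursor, the paired chromatin proteins Dppa2 and Dppa4, and the Nodal coreceptor Tdgf1. Utf1 had 1.24 and 0.575 at day 10, against 5.68 and 8.71 at day 0 (change -3.06 ± 0.37, adjusted p = 0.00372). Lin28a had 1.3 and 0.513 at day 10, against 5.58 and 4.23 at day 0 (change -2.57 ± 0.32, adjusted p = 0.00389). For both genes each day 10 array lay well below each day 0 array. Dppa2, Tdgf1 and Dppa4 changed less, by -0.89, -0.78 and -0.68.

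**Figure D2:**
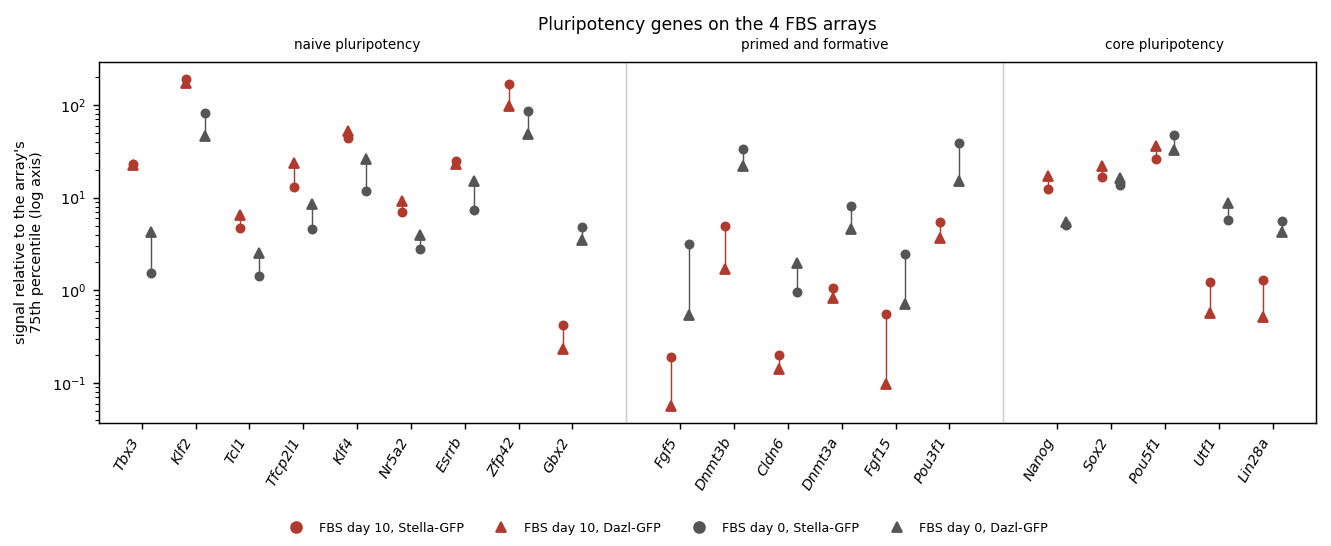
Signal relative to the array's 75th percentile (log axis) of naive, primed and core pluripotency genes on the FBS day 10 arrays (red, left of each pair) and the FBS day 0 arrays (grey), with circles for Stella-GFP and triangles for Dazl-GFP and a line joining the arrays of a day. The naive genes from Tbx3 to Zfp42 and Nanog sit higher at day 10 and Gbx2 and the primed genes sit lower, while the Pou5f1 arrays overlap.

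Targets of MEK and ERK signalling were mostly lower at day 10. Of 16 measured, 9 fell, none rose and 7 did not pass, with a median of -1.40. Spry4, a Sprouty inhibitor of receptor tyrosine kinase signalling that ERK itself induces, had a relative signal of 0.0237 on both day 10 arrays, against 0.902 and 1.72 at day 0. Its change, -5.72 ± 0.29 (adjusted p = 0.000469), was among the lowest of all genes. Dusp6, the phosphatase that switches ERK off, had 5.52 and 2.51 at day 10 and 41.7 and 22.7 at day 0 (change -3.05 ± 0.37, adjusted p = 0.00382). In both genes the groups were far apart.

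The ETS factors Etv4 and Etv1, which carry growth factor signals into transcription, changed by -3.63 ± 0.26 (adjusted p = 0.00132) and -2.97 ± 0.39 (adjusted p = 0.00477). Myc, the growth-promoting transcription factor, had a relative signal of 1.5 and 0.287 at day 10, against 7.15 and 7.41 at day 0 (change -3.47 ± 0.68, adjusted p = 0.0176). The day 0 arrays were nearly equal, and the day 10 arrays differed more but both lay below them. For Myc 2 further probes gave -3.60 and -2.79. Dusp4, another ERK phosphatase, changed by -2.05, and a second probe gave -3.41. The Spry-related inhibitors Spred1 and Spred2 and the AP-1 subunit Fosl1 changed by -1.92, -0.81 and -1.70. Egr1 (0.58) and Etv5 (0.46) were among the 7 members that did not pass.

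Immediate early genes, which cells switch on within minutes of a stimulus and which include ERK targets, did not follow that direction. Of 12 measured, 3 rose, none fell and 9 did not pass, with a median of 0.65. Atf3, a stress-induced factor, had a relative signal of 2.53 and 2.18 at day 10, against 0.481 and 0.363 at day 0 (change 2.49 ± 0.32, adjusted p = 0.0045), with the arrays of each day close together. The AP-1 subunits Fos and Jun changed by 1.77 ± 0.47 (adjusted p = 0.0462) and 1.44 ± 0.25 (adjusted p = 0.0122).

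Lists of other pathways were mixed. Of 12 LIF-STAT3 targets 2 rose (Klf4 and Tfcp2l1), 1 fell (Gbx2) and 9 did not pass, with a median of -0.04. Socs3, the feedback inhibitor that STAT3 induces directly, overlapped between the groups, with a relative signal of 11 and 11.1 at day 10 and 10.3 and 12.1 at day 0. Of 13 Wnt and beta-catenin targets 1 rose and 3 fell, with a median of -0.37. Notum, a secreted Wnt-inactivating enzyme, changed by 1.43 ± 0.33 (adjusted p = 0.0316), while Nkd1, another feedback inhibitor of the pathway, changed by -1.54, T (Brachyury), a mesoderm factor, by -0.73, and Tcf7, a partner of beta-catenin, by -0.64. Axin2, the most used readout of Wnt signalling, had a change of -0.05 and did not pass.

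Of 10 BMP targets 2 rose and 1 fell, with a median of -0.50. Id4, an inhibitor of basic helix-loop-helix factors, had a relative signal of 2.38 and 2.82 at day 10, against 0.285 and 0.379 at day 0 (change 2.98 ± 0.25, adjusted p = 0.00164), and a second probe gave 3.35. Its relatives Id1, Id2 and Id3 did not pass, with changes of -1.36, -0.82 and -0.69. The homeobox gene Msx2 changed by 1.27 and the phosphatase Dusp9 by -1.51. Of 8 Nodal pathway genes 1 rose and 1 fell, with a median of 0.09: Lefty2, a secreted Nodal inhibitor, had 31.6 and 35.5 at day 10 and 9.81 and 12.7 at day 0 (change 1.59 ± 0.32, adjusted p = 0.0197), and Tdgf1 fell as given above. Retinoid response genes numbered 11, of which none rose and 3 fell, with a median of -0.37. Rxrg, a retinoid X receptor, had 0.0574 and 0.0342 at day 10, against 4.39 and 1.87 at day 0, one of the lowest changes of all genes (-6.02 ± 0.30, adjusted p = 0.000469). The retinoic acid receptor Rarg changed by -1.21.

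Dazl itself rose in both lines but far more in the Dazl-GFP line. Its relative signal was 0.545 and 9.12 at day 10, against 0.261 and 0.578 at day 0. The Stella-GFP day 10 array lay just below the Dazl-GFP day 0 array, so the groups overlapped, and the change was 1.06 within the Stella-GFP pair and 3.98 within the Dazl-GFP pair, which shared a slide. The fitted change of 2.52 ± 0.62 had an adjusted p of 0.0383, and a dimmer probe gave 1.90. That call was lost without the replicate block, with the slide as a block and when 10 of the 12 arrays were left out in turn. On day 3 the relative signal was 0.164 in the Stella-GFP line and 1.13 in the Dazl-GFP line.

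Dppa3 (Stella), which shields maternal DNA methylation in the early embryo, had a relative signal of 5.17 and 11.6 at day 10, against 5.25 and 4.46 at day 0. Its change of 0.68 did not pass (adjusted p = 0.457), and the lines differed: the Stella-GFP arrays were level and the Dazl-GFP array was higher at day 10. Both day 3 arrays, at 31.1 and 31.9, lay above all 4. Among 9 primordial germ cell genes 2 rose, 1 fell and 6 did not pass, with a median of 0.80. Kit, the receptor for stem cell factor that germ cells need, had 2.97 and 5.44 at day 10 and 0.635 and 0.955 at day 0 (change 2.37 ± 0.21, adjusted p = 0.00182). The groups stood well apart. Ddx4 (Vasa), a germ cell RNA helicase, changed by -0.65, and Tfap2c, Prdm1 and Ifitm3 had changes of 1.57, 0.97 and 0.80 that did not pass.

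Of the 3 TET dioxygenases Tet2 rose and Tet1 and Tet3 did not pass. Tet2 had a relative signal of 2.28 and 3.01 at day 10, against 0.846 and 1.44 at day 0 (change 1.25 ± 0.17, adjusted p = 0.00563). A second probe of Tet2 gave 0.81 (adjusted p = 0.0291 among all probes) and another 0.38 (adjusted p = 0.396), and without the replicate block the call was lost. Tet1 had 0.976 and 1.25 at day 10 and 1.28 and 1.9 at day 0, and its change of -0.50 did not pass (adjusted p = 0.228). Tet3, with 0.105 and 0.109 at day 10 and 0.259 and 0.249 at day 0, was lower on both day 10 arrays, but its change of -1.25 did not pass either (adjusted p = 0.0948).

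The de novo methyltransferases and their cofactor all fell. Dnmt3b had a relative signal of 4.9 and 1.7 at day 10, against 33.6 and 22.2 at day 0 (change -3.24 ± 0.35, adjusted p = 0.00286). Dnmt3a had 1.06 and 0.836 at day 10, against 8.1 and 4.56 at day 0 (change -2.69 ± 0.29, adjusted p = 0.00269), and a second probe gave -2.66. A dimmer probe of Dnmt3a gave a smaller drop, -0.94 (adjusted p = 0.0227 among all probes). For both enzymes every day 10 array lay below every day 0 array by a wide margin. Dnmt3l, their catalytically inactive cofactor, had 6.42 and 1.57 at day 10 and 23 and 28.9 at day 0 (change -3.02 ± 0.65, adjusted p = 0.0235), with the larger drop in the Dazl-GFP line, and the call was lost with the slide as a block and without either day 0 array or the Dazl-GFP day 10 array.

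The maintenance machinery did not pass: Dnmt1 had a change of 0.45 and Uhrf1 of 0.19. Of all 16 DNA methylation and demethylation genes measured, 3 rose and 5 fell, with a median of -0.10. Gadd45b, a stress-induced gene linked to demethylation, had a relative signal of 6.92 and 4.37 at day 10, against 0.656 and 0.946 at day 0 (change 2.80 ± 0.32, adjusted p = 0.003). Its relative Gadd45a moved the other way, with 3.91 and 4.68 at day 10 and 14.7 and 11.6 at day 0 (change -1.61 ± 0.19, adjusted p = 0.00372). Zfp57, a zinc finger protein that guards methylation at imprinted loci, changed by 0.79 ± 0.17 (adjusted p = 0.0237).

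Imprinted genes, which are expressed from a single parental allele under the control of DNA methylation at imprinting control regions, were more often lower than higher at day 10. Of 17 measured, 1 rose, 8 fell and 8 did not pass, with a median of -1.01. Dlk1, a Notch ligand relative and growth regulator, had a relative signal of 0.212 and 0.129 at day 10, against 1.95 and 1.02 at day 0 (change -3.10 ± 0.30, adjusted p = 0.00229). Its neighbour Meg3, a maternally expressed long noncoding RNA, changed by -1.59 ± 0.23 (adjusted p = 0.00677), and 4 further probes of Meg3 gave -1.25 to -1.67. Dlk1 is expressed from the paternal allele and Meg3 from the maternal one, and both lay lower at day 10 in both lines.

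Cdkn1c, a cyclin-dependent kinase inhibitor, had 1.56 and 1.23 at day 10 and 7.49 and 10.2 at day 0 (change -2.66 ± 0.26, adjusted p = 0.00229). Phlda2, a brake on placental growth, changed by -2.25, Snrpn by -1.52, the zinc finger gene Peg3 by -1.23 and the adaptor Grb10 by -1.01. Peg10, a retrotransposon-derived gene, was above background on both day 0 arrays and on neither day 10 array, and was at least 3.13-fold lower at day 10 (adjusted p = 0.0295). Plagl1, a zinc finger transcription factor, was the one that rose, with 6.17 and 1.1 at day 10 and 1.13 and 0.0878 at day 0. The lines differed strongly in level on both days and the groups overlapped, the change was 3.05 ± 0.32 (adjusted p = 0.00254), a second probe gave 0.63 with an adjusted p of 0.189, and the call was lost without the replicate block. H19 and Igf2, a neighbouring pair, had changes of 0.13 and 0.08.

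Genes of the piRNA pathway, which silences transposons in germ cells, went down where they passed: of 13 measured, 4 fell and none rose, with a median of -0.63. The PIWI proteins Piwil4 and Piwil2 changed by -2.60 ± 0.39 (adjusted p = 0.00717) and -1.47 ± 0.20 (adjusted p = 0.0051), and the Tudor protein Tdrd1 by -1.58. Ddx4 belongs to this list too. Of 15 meiosis genes 2 rose and 2 fell, with a median of -0.34. Figla, an oocyte transcription factor, was at least 3.18-fold lower at day 10 (adjusted p = 0.000469), where neither array was above background, and Meioc, a meiotic entry factor, changed by -1.79. Hormad2, a chromosome axis protein, changed by 1.43 and Msh5 by 0.97, although a second probe of Msh5 gave -0.43. The groups overlapped for Hormad2, which had a relative signal of 0.124 and 0.591 at day 10 and 0.0522 and 0.193 at day 0. Stra8, the gatekeeper of meiosis, overlapped between the groups, with a change of -0.37. Two-cell stage genes, which a small fraction of ES cells express at any time, numbered 5 and none passed. Their median was -0.72, made of -1.99 in the Stella-GFP line and 0.31 in the Dazl-GFP line.

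**Figure D3:**
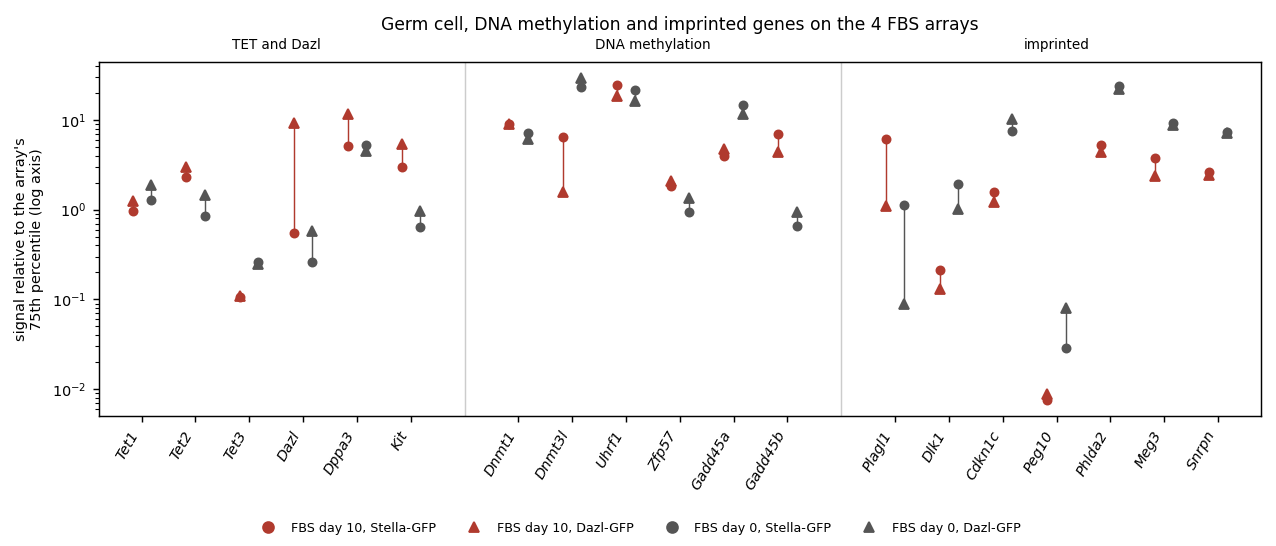
Signal relative to the array's 75th percentile (log axis) of Dazl, TET, germ cell, DNA methylation and imprinted genes on the FBS day 10 arrays (red, left of each pair) and the FBS day 0 arrays (grey), with circles for Stella-GFP and triangles for Dazl-GFP. Dnmt3l and the imprinted genes from Dlk1 to Snrpn sit lower at day 10 and Gadd45b and Kit sit higher, while the arrays of Dazl, Dppa3 and Plagl1 overlap between the days.

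Genes of the integrated stress response, in which phosphorylation of the translation factor eIF2 raises the transcription factor ATF4, moved in 1 direction where they passed. ATF4 acts with C/EBP partners at a composite element, written here as TGATGNAA, in the promoters of amino acid enzyme and transporter genes. This motif was looked for on both strands in the RefSeq promoters (build GRCm38.p6), which run from 250 bases before to 50 bases after a gene's start. It was present in 1304 of 32851 promoters (3.97%), which belong to 27025 genes. That share is per promoter, while a gene below is counted if any of its promoters holds the motif. Over the lists of integrated stress response regulators, amino acid enzymes and amino acid transporters, 11 genes passed the test, 9 of them had a promoter sequence and 6 of those held the motif. Of the 30 genes that did not pass, 25 had a promoter sequence and 5 held it (Chac1, Fgf21, Pycr1, Slc1a4 and Trib3). A match describes these letters and no binding was measured. The 6 promoters are shown because they belong to the genes of this group that rose. Each line is 100 bases on the gene's strand, 5′ to 3′, with the match or its reverse complement in capitals.
Asns, chr6:7693210-7693309, minus strand, match 23 bases before the start: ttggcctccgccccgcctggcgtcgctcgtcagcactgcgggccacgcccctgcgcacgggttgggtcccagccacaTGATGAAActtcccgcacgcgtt
Atf3, chr1:191183390-191183489, minus strand, match 110 bases before the start: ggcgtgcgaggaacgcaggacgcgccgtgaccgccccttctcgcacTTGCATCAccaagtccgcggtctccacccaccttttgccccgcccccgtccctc
Got1, chr19:43524654-43524753, minus strand, match 102 bases before the start: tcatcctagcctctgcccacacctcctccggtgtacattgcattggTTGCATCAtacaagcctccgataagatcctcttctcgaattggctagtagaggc
Nupr1, chr7:126625527-126625626, minus strand, match 110 bases before the start: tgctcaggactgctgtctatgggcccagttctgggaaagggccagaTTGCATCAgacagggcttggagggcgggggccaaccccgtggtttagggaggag
Slc7a11, chr3:50443617-50443716, minus strand, matches 66 and 47 bases before the start: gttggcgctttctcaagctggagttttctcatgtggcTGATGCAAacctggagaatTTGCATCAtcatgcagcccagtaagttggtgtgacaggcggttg
Vldlr, chr19:27216774-27216873, plus strand, match 200 bases before the start: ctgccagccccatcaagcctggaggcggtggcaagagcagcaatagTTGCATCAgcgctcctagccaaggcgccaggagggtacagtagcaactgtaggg

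Of 16 integrated stress response regulators measured, 5 rose, none fell and 11 did not pass, with a median of 0.78. Gdf15, a stress cytokine, had a relative signal of 3.77 and 8.97 at day 10, against 0.938 and 1 at day 0 (change 2.59 ± 0.31, adjusted p = 0.00372). Nupr1, a stress-induced chromatin protein, had 14.1 and 29.3 at day 10, against 2.97 and 5.59 at day 0 (change 2.32 ± 0.40, adjusted p = 0.0117). Day 10 exceeded day 0 on every array for both genes, and the Dazl-GFP array was the higher of the day 10 pair. The lipoprotein receptor Vldlr changed by 1.5 and the translation inhibitor Eif4ebp1 by 0.63, and Atf3, given above, is the fifth member that rose. A dimmer probe of Eif4ebp1 gave 0.44 (adjusted p = 0.447 among all probes). Atf4 itself had a change of 0.52, Chac1, a glutathione-degrading enzyme, of 1.30 (adjusted p = 0.0878), and the pseudokinase Trib3 of 0.81 (adjusted p = 0.0707), none of which passed.

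Amino acid supply genes were higher at day 10 where they passed. Of 14 amino acid and one-carbon enzymes 3 rose and none fell, with a median of 0.53. Asns, asparagine synthetase, had a relative signal of 160 and 241 at day 10, against 68.1 and 86.6 at day 0 (change 1.36 ± 0.19, adjusted p = 0.00596). The transaminases Gpt2 and Got1 changed by 1.14 and 0.62. Phgdh and Psat1, which make serine, did not pass, with changes of 0.06 and 0.19. Of 11 amino acid transporters 3 rose and none fell, with a median of 0.50. Slc7a11, the cystine importer, had 0.0325 and 0.123 at day 10, against 0.00381 and 0.00263 at day 0, where neither array was above background, and was at least 4.69-fold higher at day 10 (adjusted p = 0.00404). That p was computed with the day 0 signals below background and does not test the bound. With normexp background correction its change was -0.49 and did not pass, a reversal not seen after the repair given in the last section. The cationic amino acid carrier Slc7a1 and the glutamine carrier Slc1a5 changed by 1.06 and 0.96. A dimmer probe of Slc7a1 gave 0.36 (adjusted p = 0.231 among all probes).

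Lists of other stress pathways held few or no members that passed. None of 18 cytosolic aminoacyl-tRNA synthetases passed on the brightest probe, with a median of 0.16. Dimmer probes of 5 of these genes passed upward among all probes, 3 of Aars (2.58, 2.26 and 2.15) and 1 each of Iars (1.52), Qars (1.29), Dars (1.05) and Hars (0.86). None of 14 endoplasmic reticulum chaperones and helpers passed, with a median of 0.03, among them Hspa5 (BiP) at -0.38. Of 9 heat shock genes 1 rose, the cochaperone Bag3 by 0.75, with a median of -0.05. A dimmer probe of Bag3 gave 0.27 (adjusted p = 0.392 among all probes). Of 15 p53 targets 1 rose and 1 fell, with a median of 0.04: Cdkn1a (p21), a cell cycle inhibitor, had 4.48 and 4.38 at day 10 and 1.16 and 1.93 at day 0 (change 1.57 ± 0.27, adjusted p = 0.0108), and the death effector Bbc3 (Puma) changed by -0.81. Of 11 antioxidant response genes 1 rose and 1 fell, with a median of -0.10. Nqo1, a quinone reductase, had 7.67 and 7.45 at day 10 and 2.25 and 2.22 at day 0 (change 1.76 ± 0.24, adjusted p = 0.00554), and Gclm, a subunit of the glutathione-making ligase, changed by -0.97.

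Nqo1 is also a target of the aryl hydrocarbon receptor, a ligand-activated factor that senses planar aromatic compounds. Of 6 targets of this receptor 3 rose and none fell, with a median of 1.14. Cyp1a1, the cytochrome P450 most strongly induced by the receptor, had a relative signal of 0.279 and 0.37 at day 10, against 0.0175 and 0.00504 at day 0. It was above background on both day 10 arrays and on neither day 0 array, and was at least 22.4-fold higher at day 10 (adjusted p = 0.00589). Cyp1b1, a related enzyme, had 0.369 and 0.269 at day 10 and 0.0696 and 0.119 at day 0 (change 1.79 ± 0.40, adjusted p = 0.0266). Tiparp and Ahrr, other targets, had changes of -0.13 and 0.53 that did not pass. In the serum-free arm Cyp1a1 was at 0.385 and 0.653 at day 10, against 0.00999 and 0.00533 at day 0.

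Interferon response genes were lower at day 10 where they passed. Of 19 measured, none rose, 5 fell and 14 did not pass, with a median of -1.0. Bst2 (tetherin), which holds viruses on the cell surface, had a relative signal of 9.07 and 8.68 at day 10, against 24.4 and 30.4 at day 0 (change -1.62 ± 0.26, adjusted p = 0.00858). The immunoproteasome subunits Psmb8 and Psmb9 changed by -3.24 ± 0.24 (adjusted p = 0.00132) and -1.76 ± 0.29 (adjusted p = 0.00946). For both subunits every day 10 array lay below every day 0 array. Oasl2, an oligoadenylate synthetase relative, changed by -2.45, while a dim second probe gave 1.23, and the GTPase Gbp2 changed by -1.08. Members often used as readouts, Isg15 and Rsad2, had changes of 0.05 and 0.12 and did not pass, and Iigp1 and Ifi44 were above background on none of the 4 arrays.

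The interferon-stimulated response element, taken here as GAAA, any 2 bases and GAAA and searched on both strands, was present in 1131 of the 32851 promoters (3.44%). It was in the promoters of 2 of the 5 list members that fell, all 5 of which had a promoter sequence, and of 7 of 11 members with a sequence that did not pass. These counts too are per gene, and the percentage is per promoter. Both promoters of genes that fell are shown, with the match (Bst2) or its reverse complement (Gbp2) in capitals.
Gbp2, chr3:142620559-142620658, plus strand, match 59 bases before the start: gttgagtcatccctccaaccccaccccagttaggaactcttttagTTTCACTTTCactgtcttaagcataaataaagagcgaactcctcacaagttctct
Bst2, chr8:71537545-71537644, minus strand, overlapping matches 130 and 124 bases before the start: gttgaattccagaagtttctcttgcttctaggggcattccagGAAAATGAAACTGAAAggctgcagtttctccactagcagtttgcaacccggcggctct

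Several secreted inflammatory and matrix-degrading proteins were lower at day 10 too. Of 10 chemokines none rose and 3 fell, with a median of -1.13. Ccl2, which attracts monocytes, had a relative signal of 0.438 and 0.236 at day 10, against 2.24 and 2.95 at day 0 (change -3.0 ± 0.43, adjusted p = 0.00634). Cxcl12 and Cxcl5, ligands for CXCR4 and CXCR2, changed by -1.75 and -1.54. Of 10 metalloproteinases and their inhibitors 1 rose and 3 fell, with a median of -0.94, or -0.89 with members below background at their bound. By line the median was -0.07 in the Stella-GFP pair and -1.40 in the Dazl-GFP pair. Mmp3 (stromelysin), with 0.029 and 0.0029 at day 10, against 0.32 and 1.48 at day 0, had a fitted change of -6.23 ± 1.05 (adjusted p = 0.0105). Its Dazl-GFP day 10 array was not above background, and the change was -3.465 in the Stella-GFP pair and -8.992 in the Dazl-GFP pair, so the size is uncertain. Mmp9, a gelatinase, was at least 4.4-fold lower at day 10 (adjusted p = 0.0102), Mmp2, another gelatinase, changed by -1.82, and the inhibitor Timp1 rose by 0.86.

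Ccl2, Mmp3 and Mmp2 are also made by fibroblasts, and feeder fibroblasts were present in every culture. In these bulk samples fewer cells of a type and less RNA per cell cannot be told apart. The 10 feeder fibroblast markers (Thy1, Col1a1, Col1a2, Col3a1, S100a4, Twist2, Prrx1, Postn, Dcn and Lum) were all above background on all 4 arrays. They summed to a relative signal of 52.6 and 35.1 at day 10, against 33 and 40.4 at day 0, and to 98.4 and 51.9 at day 3. The sum was higher at day 10 in the Stella-GFP line and lower in the Dazl-GFP line, and 1 marker rose, 1 fell and 8 did not pass. Over the wider list of 18 fibroblast genes 3 rose and 2 fell, with a median of -0.06, made of 0.48 in the Stella-GFP line and -0.54 in the Dazl-GFP line. Col1a1, the main type I collagen chain, changed by 1.59 ± 0.30 (adjusted p = 0.0155) and Snai2, a mesenchymal transcription factor, by 1.01, while Twist2 changed by -1.49. Dimmer probes of Col1a1 gave 2.117 (adjusted p = 0.0505 among all probes) and 1.225 (adjusted p = 0.135), neither of which passed. The part of feeder cells in the chemokine, metalloproteinase and interferon values was not tested.

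Markers of other cell types were summed in the same way. The 6 macrophage markers (Csf1r, Lyz2, Cd68, Tyrobp, Laptm5 and Ctss) summed to 2.14 and 2.58 at day 10, against 2.26 and 7.37 at day 0, where Lyz2 made 6.22 of the Dazl-GFP value. Of the wider list of 13 macrophage genes 1 rose, Laptm5 by 1.28, none fell, and the median was -0.40. The 7 primitive endoderm markers (Gata4, Gata6, Sox17, Sox7, Foxa2, Dab2 and Cubn) summed to 0.837 and 0.616 at day 10, against 1.54 and 2.49 at day 0. Both day 10 sums lay below both day 0 sums. In the wider list of 12 primitive endoderm genes none rose and 2 fell, with a median of -0.95: Lrp2 (megalin) and Dab2, partners in endocytosis, changed by -2.28 ± 0.44 (adjusted p = 0.0163) and -2.27 ± 0.45 (adjusted p = 0.0183). Gata4, Gata6 and Sox17, the transcription factors of that lineage, did not pass, with changes of 0.54, -0.30 and 1.62. Sox7 did not pass either, with a change of -0.94, while a dimmer probe of it gave 2.17 (adjusted p = 0.0252 among all probes). A dimmer probe of Dab2 gave -1.366 (adjusted p = 0.381 among all probes), with 0.59 in the Stella-GFP pair and -3.321 in the Dazl-GFP pair.

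Of 9 basement membrane genes 3 rose and none fell, with a median of 0.42. The collagen-binding glycoprotein Sparc and the nidogens Nid1 and Nid2 changed by 1.37 ± 0.33 (adjusted p = 0.0366), 1.34 ± 0.21 (adjusted p = 0.00822) and 0.77 ± 0.19 (adjusted p = 0.0402). Of 10 further collagens, a list without type IV and without the chains counted among the fibroblast genes, none rose and 1 fell. Their median of 0.00 was made of 0.48 in the Stella-GFP line and -0.66 in the Dazl-GFP line. The member that fell was Col18a1, with a relative signal of 21.7 and 16.3 at day 10 and 50.4 and 43.5 at day 0 (change -1.32 ± 0.16, adjusted p = 0.0041). Of 14 contractile genes and targets of YAP and SRF none rose and 2 fell, with a median of -0.27: the YAP target Ankrd1 changed by -1.60 and calponin Cnn1 by -1.13.

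The 4 neuroectoderm markers (Pax6, Sox1, Tubb3 and Nes) summed to 18.5 and 17.8 at day 10, against 9.87 and 5.31 at day 0, most of it from Tubb3. This neuronal beta-tubulin had a relative signal of 14.8 and 14.5 at day 10 and 5.98 and 3.84 at day 0 (change 1.61 ± 0.19, adjusted p = 0.00372), while Pax6 and Sox1, the defining transcription factors, had changes of -0.86 and -0.32 and did not pass. In the wider list of 11 neuroectoderm genes 2 rose and 1 fell, with a median of -0.32, the others being the microtubule protein Map2 (0.95, with a dimmer probe at 0.20, adjusted p = 0.664 among all probes) and Sox11 (-1.30). Of 10 mesendoderm genes 1 rose and 1 fell, with a median of -0.17. Gsc, the organizer homeobox gene, had 0.602 and 0.595 at day 10 and 0.232 and 0.0537 at day 0 (change 2.42 ± 0.48, adjusted p = 0.0176), and T fell as given above. The 4 mesendoderm markers (T, Mixl1, Gsc and Eomes) summed to 0.741 and 0.723 at day 10, against 0.409 and 0.251 at day 0, with 3 of the 4 above background on each array.

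Of 11 trophoblast genes 1 rose and 1 fell, with a median of -0.29. Gata3, a trophoblast transcription factor, was at least 8.27-fold higher at day 10 (adjusted p = 0.00672), being above background on both day 10 arrays and on neither day 0 array, and keratin Krt18 had a relative signal of 1.55 and 1.24 at day 10 and 7.24 and 7.11 at day 0 (change -2.37 ± 0.51, adjusted p = 0.0235). The defining factors Cdx2, Eomes, Elf5 and Hand1 summed to 0.159 and 0.141 at day 10, against 0.335 and 0.215 at day 0, none of them passed, and 2 to 3 of the 4 were above background.

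Metabolic lists had medians of 0.07 to 0.35, with larger changes in single members. Of 13 glycolysis genes 3 rose and none fell, with a median of 0.07. Pfkp, the platelet form of phosphofructokinase, had a relative signal of 12.5 and 16.4 at day 10, against 2.39 and 4.34 at day 0 (change 2.16 ± 0.29, adjusted p = 0.00539), and 2 further probes gave 1.31 and 2.01. The glucose transporter Slc2a3 changed by 1.09 and Gpi1, glucose phosphate isomerase, by 0.80, although a dim probe of Gpi1 gave -0.03. Of 13 hypoxia genes 3 rose and 1 fell, with a median of 0.34. Ndrg1, a stress-responsive gene, had 6.27 and 4.12 at day 10 and 0.528 and 1.25 at day 0 (change 2.65 ± 0.47, adjusted p = 0.0125), Ankrd37 changed by 1.09 and Vegfa by 1.02. Pdk1, the kinase that shuts off pyruvate dehydrogenase, went the other way, with 3.06 and 1.33 at day 10 and 7.58 and 11.5 at day 0 (change -2.21 ± 0.41, adjusted p = 0.0142).

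Of 11 fatty acid synthesis genes 3 rose and none fell, with a median of 0.35. They were malic enzyme Me1 (1.20), the desaturase Scd2 (1.12) and the elongase Elovl6 (0.73). Of 20 sterol synthesis genes 1 rose and none fell, with a median of 0.28. Of 18 respiratory chain genes 1 rose, Cox5a by 0.67, with a median of 0.18, while 7.53% of all genes rose. Dimmer probes of Sdha and Atp5a1 gave 1.60 and 1.23 (adjusted p = 0.00302 and 0.00627 among all probes). Their brightest probes gave 0.17 and 0.08, and another probe of each gave 0.46 and 0.36, none of which passed. Of 14 lysosome and autophagy genes 2 rose and none fell, with a median of 0.32, and the protease Ctsb changed by 1.00. Cell division genes numbered 18, with a median of -0.18, and 1 passed: Ccne1, the G1 cyclin E1, had a relative signal of 51 and 28.5 at day 10 and 110 and 64.4 at day 0 (change -1.15 ± 0.28, adjusted p = 0.0356). Of 12 genes of the MYC and ribosome biogenesis list Myc and Nolc1 (-0.97) fell and the other 10 did not pass, with a median of -0.40, and a second probe of Nolc1 gave -0.24 (adjusted p = 0.387 among all probes). Mycn, a relative of Myc, had a change of -0.35.

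**Figure D4:**
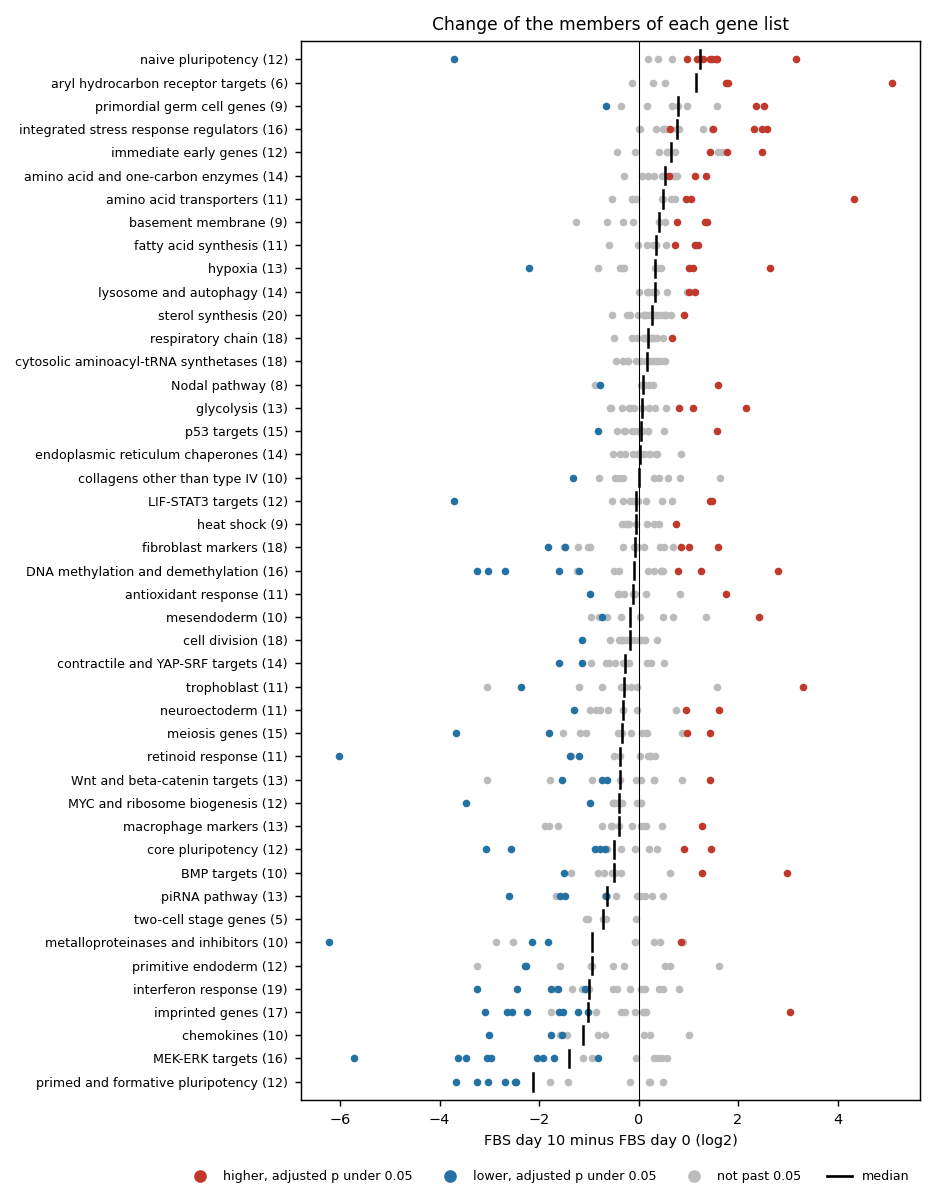
Fitted change of every measured member of the 45 gene lists, FBS day 10 minus FBS day 0 in log2 units (x axis), with lists down the page by their median (black bar) and the number of measured members in brackets. Red points were higher and blue points lower at an adjusted p under 0.05, grey points did not pass; members below background in a whole group are drawn at the fitted value. The naive list is at the top with a median of 1.23 and the primed and MEK-ERK lists at the bottom with -2.12 and -1.40.

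Spic led the highest changes outside the lists. Spic, an ETS factor of red pulp macrophages that ES cells also express, had a relative signal of 4.76 and 6.9 at day 10, against 0.248 and 0.0371 at day 0 (change 5.90 ± 0.78, adjusted p = 0.00493), and a second probe gave 5.67. The homeobox genes Vax2, of the ventral eye, and Gsx2, of the ventral forebrain, changed by 5.00 ± 0.21 (adjusted p = 0.000469) and 4.36 ± 0.28 (adjusted p = 0.000816). Vax2 had 2.9 and 3.56 at day 10 and 0.0988 and 0.101 at day 0, with the arrays of a day almost equal. Rasgef1a, an exchange factor for Ras family GTPases, and Rec114, needed for meiotic DNA breaks, changed by 4.27 and 4.07.

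Of the genes called, 126 were above background on no day 0 array. The named ones were above background on both day 10 arrays. Besides Cyp1a1, Slc7a11 and Gata3 they were Krtdap, a keratinocyte protein (at least 19.9-fold higher), the cation channel Trpm1 (at least 14.4-fold, though a second probe gave -0.59), Dmgdh, which degrades dimethylglycine (at least 12.5-fold), and the phospholipase Pla2g4e (at least 8.02-fold). Cd3d, the T cell receptor's CD3 delta chain, was at least 6.75-fold higher, the channel Trpv3 at least 5.98-fold and Atcayos, a transcript antisense to Atcay, at least 4.59-fold.

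Among the lowest changes Tmem54, a membrane protein, had a relative signal of 0.074 and 0.0393 at day 10, against 3.73 and 1.97 at day 0 (change -5.65 ± 0.30, adjusted p = 0.000527). Wt1, the Wilms tumour transcription factor, had 0.027 and 0.0209 at day 10, against 1.08 and 0.349 at day 0 (change -4.69 ± 0.52, adjusted p = 0.00295). The receptor tyrosine kinase Epha1 changed by -4.64, the sodium/proton exchanger Slc9b2 by -4.35 and the proteolipid family member Gpm6b by -4.18. In all 5 the groups stood apart on every array, but these genes were picked by their change on the same arrays. Mcpt8, a granule protease of basophils, and the zinc finger gene Zfp608 changed by -4.15 and -4.02, each with 1 of 2 day 10 arrays above background. The other named genes were above background on no day 10 array, as were 112 of the genes called: Lad1, an anchoring filament protein (at least 15.6-fold lower), the bone cytokine Tnfsf11 (RANKL, at least 14.5-fold), the ectonucleotidase Nt5e (CD73, at least 13.1-fold), gastrin-releasing peptide Grp (at least 9.01-fold) and Prom2 (at least 6.88-fold).

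The same interval in the serum-free arm was set against the FBS arm by testing the difference of the changes themselves. It passed for 15 of 20770 genes (0.0722%), 10 with the higher change in the FBS arm and 5 with the lower, against 4072 at an unadjusted p under 0.05. These calls depended on the fit: limma called 1 without the replicate block, 0 with normexp (1418 at an unadjusted p under 0.05), with the slide as a block (3384) or with only the 8 arrays of days 0 and 10 (3619), and 0 to 36 when an array was left out. Figla had the smallest p: it was at 0.0045 and 0.00328 at FBS day 10, against 0.0535 and 0.0446 at FBS day 0, and at 0.00491 and 0.00505 at serum-free day 10, against 0.00487 and 0.00426 at serum-free day 0. The difference of the fitted changes was -3.80 ± 0.24 (SE, adjusted p = 0.00978), with the FBS day 0 arrays above background and the other 6 arrays of days 0 and 10 below it. The SE and p of Figla thus rest largely on signals below background, and its place in this order is no support for a difference between the arms. Rxrg, which was lower at day 10 in the FBS arm, was at 0.238 and 0.241 at serum-free day 10, against 0.576 and 0.457 at serum-free day 0. The difference was -4.92 ± 0.42 (adjusted p = 0.0274). Wnt8a, a Wnt ligand of the early embryo, was at least 7.98-fold lower at FBS day 10, with a fitted difference of -3.80. Gpm6b (-3.60) and a predicted gene make up the other members of the lower 5.

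On the higher side, Serpinb1a, an inhibitor of neutrophil proteases, had a relative signal of 0.976 and 1.44 at FBS day 10, against 0.0865 and 0.125 at FBS day 0, and 0.358 and 0.375 at serum-free day 10, against 0.384 and 0.464 at serum-free day 0. The difference was 3.71 ± 0.28 (adjusted p = 0.0195). Its gene cluster neighbour Serpinb1c gave 3.48, the homeobox gene Pitx1 3.57, the arginine deiminase Padi4 3.13, the calcium-binding protein S100a13 2.75 and the glutaminyl cyclase Qpct 2.37. Hrh1, the histamine H1 receptor, gave 2.60, as its change was -0.01 in the FBS arm and -2.60 in the serum-free arm.

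Several genes described above missed that test while their changes were far apart, and a p that misses the threshold does not show that the arms acted alike. Dnmt3b was at 17.6 and 19.6 at serum-free day 10, against 20.3 and 16.2 at serum-free day 0, and the difference of the changes was -3.28 ± 0.50 (adjusted p = 0.061). Fgf5 gave -3.37 ± 0.45 (adjusted p = 0.061) and Tet2 1.54 ± 0.24 (adjusted p = 0.0614). Bst2 was higher at serum-free day 10, at 35 and 32.6, against 20 and 18.4 at serum-free day 0, and the difference was -2.43 ± 0.36 (adjusted p = 0.061). Spry4 gave -2.56 ± 0.41 (adjusted p = 0.0626) and Slc7a11, which was above background on none of the 4 serum-free arrays, 4.11 ± 0.76 (adjusted p = 0.0717). For Dlk1, Dusp6 and Asns the differences were -0.74, -1.41 and 0.76, with adjusted p of 0.378, 0.217 and 0.204.

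**Figure D5:**
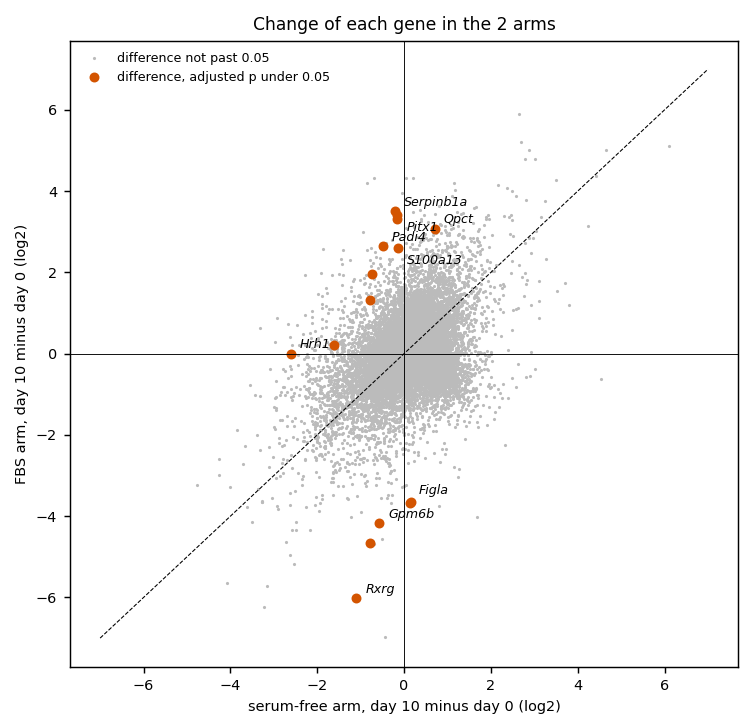
Fitted change of each gene tested from day 0 to day 10 in the FBS arm (y axis) and in the serum-free arm (x axis), both in log2 units, with the line of equal change dashed. Orange points are the 15 genes whose difference passed an adjusted p of 0.05. Serpinb1a, Pitx1, Padi4 and S100a13 lie high with little change in the serum-free arm, Figla, Gpm6b and Rxrg lie low, and Hrh1 lies to the left near 0 in the FBS arm.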

How the data were processed

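The series holds 12 one-colour Agilent arrays (Cy3) of mouse ES cell RNA, of which the 4 of the FBS arm at days 10 and 0 form the comparison. Per the file headers, the deposited processed signal intensity of a spot came from Agilent Feature Extraction (background subtractor 9.1.3.1) after background subtraction and detrending. The table of ratios that the authors deposited holds each spot's background-subtracted signal over the array median, as found from its values (41529 of 45018 lines matched), and served as an alternative.

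The intensity was divided by the array's 75th percentile over all 43379 non-control spots, and log2 values of a probe's spots were averaged. Of 41174 probes, 22951 were named through a RefSeq accession, 9755 by a file name found in the RefSeq table, 999 through the authors' table and 7469 by the file's name alone. The brightest probe stood for each of 26905 genes, and the test covered 20770 genes detected well above background on 2 or more arrays. In R (version 4.3.3), limma (version 3.58.1, with data.table at version 1.17.8) fitted 6 groups plus the line to all 12 arrays (5 residual and 2.53 prior degrees of freedom), with Benjamini-Hochberg adjustment over all genes at 0.05. Figures were drawn with matplotlib 3.10.9. The number of arrays limits the precision. Scripts were tested on simulated data.

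Where no array of a group was above background, the fold is a bound: the other group's mean against signals raised to each array's lowest signal well above background. Otherwise the number of arrays above background is given. The p printed beside a bound came from the limma fit to the signals before they were raised, so it does not test the bound.

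Replicate 1 is the Stella-GFP line and replicate 2 the Dazl-GFP line, so the pairing comes from the labels. Line differences at FBS day 10 correlated with those at day 0 across genes at 0.238, and 13 of 15 pairs of groups were over 0.1.

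The comparison, the 45 lists (577 genes) and the naming rule were chosen with earlier results of these data known. Named are the 15 highest and 15 lowest changes with the same sign in both lines, without clone and predicted names, 2 to 6 members of each list with the largest change past 0.05, up to 8 genes each way for the difference between arms, and Dazl, Dppa3, Nanog, Pou5f1, Sox2 and Tet1 to Tet3. A few genes chosen by the rule are left out. Further list members were named after their values were seen. A gene can stand in several lists. List members with no probe past the filter are not counted.

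Alternatives were other normalizations and background corrections, the authors' table, other filters, every probe, a fit without the replicate block, slide as a block, variance trend, fewer arrays and leaving out each array.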

Additional observations from a re-analysis of the deposited data

Results flagged for a closer look

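Of the genes whose day 10 change differed between the arms, 12 follow the naming rule, each with the difference FBS minus serum-free in log2 units. Higher in the FBS arm were Serpinb1a (3.715, adjusted p = 0.0195), Pitx1 (3.573, adjusted p = 0.0446), Serpinb1c (3.483, adjusted p = 0.0446, with 1 of 2 FBS day 0 arrays above background), Padi4 (3.134, adjusted p = 0.0274) and S100a13 (2.748, adjusted p = 0.0446). So were Hrh1 (2.596, adjusted p = 0.0446), Qpct (2.369, adjusted p = 0.0476) and Catsperz (2.089, adjusted p = 0.0446). Lower in the FBS arm were Rxrg (-4.916, adjusted p = 0.0274), Wnt8a (-3.802, adjusted p = 0.0488), Figla (-3.797, adjusted p = 0.00978) and Gpm6b (-3.602, adjusted p = 0.0446). Wnt8a was above background on neither FBS day 10 array, and Figla on neither FBS day 10 array and none of the 4 serum-free arrays of days 0 and 10, so the sizes of both are fitted values and not measured ones. Their p-values also rest in part on signals below background. These p-values come from the limma fit over 12 arrays, with n = 2 per group, and 8 of the 12 lie between 0.0446 and 0.0488. No gene passed with normexp, with the slide as a block or with only the 8 arrays of days 0 and 10 (limma, 1418, 3384 and 3619 at an unadjusted p under 0.05). The same was true without the FBS Dazl-GFP day 10 array (3783), the serum-free Stella-GFP day 0 array (3810), the serum-free Dazl-GFP day 10 array (2804) or either serum-free day 3 array (3925 each).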

How the results depend on the processing

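The call count for FBS day 10 against day 0, 2687, fell to 1295 with the slide as a block, to 503 with only the 6 FBS arrays, to 377 with normexp background correction and to 0 with only the 4 arrays (limma, 4170 unadjusted), and was 667 to 2382 when an array was left out. The lowest of these came without the Dazl-GFP day 10 array, followed by 1213 without the Stella-GFP day 10 array and 1738 without the Stella-GFP day 0 array. Normexp moved the median of all genes to -0.46 and the share of higher calls to 48.5%, against 58.2%. Under normexp as planned 11 named genes reversed without passing: Atcayos (-0.566), Cd3d (-0.301), Dmgdh (-0.047), Gata3 (-0.441), Map2 (-0.008), Msh5 (-1.012), Msx2 (-0.105), Pla2g4e (-0.092), Serpinb1c (-0.12), Slc7a11 (-0.49) and Trpv3 (-0.541). On the Dazl-GFP day 0 array, and on no other, 10 spots had a local background more than 10 times that array's median. With these replaced by the median, chosen after seeing the data, normexp called 3245, 0 of the named genes reversed and 147 of the 153 below passed. No other setting reversed any of the 153 named genes that passed. Of these 153, 151 passed with the authors' table, 147 with quantile normalization, 102 with the slide as a block and 73 without the Dazl-GFP day 10 array, where Klf2, Klf4, Dazl, Dnmt3l, Nupr1, Asns, Bst2, Ccl2 and Mmp3 were among those lost.

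The replicate numbers pair the arrays by line, and without the replicate block 1877 genes were called, of which 1871 were shared, and 115 of the 153 named genes passed. For the difference between arms, the count of 15 became 1 without the replicate block. It was 67 with quantile normalization, 36 with the authors' table, 323 with the repaired normexp, 260 with only genes above background on all 12 arrays and 269 with a variance trend. It was 5 with no filter and 7 with every probe. limma called 0 with normexp as planned (1418 unadjusted), with the slide as a block (3384) and with only the 8 arrays of days 0 and 10 (3619), and 0 to 36 when an array was left out. Medians of the naive list stayed between 0.94 and 1.54 over 24 settings, of the primed list between -2.46 and -1.66 and of the MEK-ERK list between -1.64 and -0.99.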
